A study of Mus musculus with 12 samples.

Results

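The 8 genes of Schwann cells and of the myelin they make that are described here were followed in the aorta of adult and old mice: Sox10, S100b, Ngfr, Mag, Prx, Pmp22, Cnp and Mbp. They were chosen by name, as gene probes of the array whose gene name equals 1 of these symbols, and all 8 were found among the 28289 genes named on the array and among the 16918 genes tested. They are represented by 11 probes, with 3 for Mbp, 2 for Pmp22 and 1 for each of the others. The descending aorta was taken from male C57BL/6 animals bought from a breeder and fed standard chow, 6 mice aged 6 months and 6 mice aged 20 months. The vessel was flushed with cold saline through the left ventricle and freed of the surrounding fat and connective tissue, and RNA of each mouse was hybridised to 1 Agilent 1-colour array.

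Schwann cells ensheath the axons of peripheral nerves. Some wrap a single large axon in compact myelin, and others, the non-myelinating or Remak cells, hold bundles of thin axons such as the sympathetic fibres that run in the outer coat of an artery. Sox10 is the transcription factor that both kinds need, and with Egr2 it turns on the genes of myelin. A whole vessel holds only a few such cells beside its smooth muscle, endothelium and fibroblasts, so their transcripts can show how much nerve a dissected piece contained. In such bulk RNA, fewer cells of a type and less RNA per cell cannot be told apart.

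The sequences that the measurements rest on are shown for the members where they could be read from the files. A probe of Pmp22 reads the end of the coding sequence, and its capitals mark the in-frame stop codon, which 4 further bases follow. It lies at chr11:62971862-62971921 on the plus strand of build mm9, the build of the array files.
Pmp22 probe: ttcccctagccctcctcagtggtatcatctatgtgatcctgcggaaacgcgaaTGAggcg
For S100b, whose signal moved with that of Sox10, for Mag, whose relation to Sox10 did not pass after adjustment, and for Cnp, whose signal varied least, the 250 bases before the annotated start are given, from RefSeq on GRCm38.p6. The capitals mark matches to ACAAAG, a core bound by SOX proteins, on either strand. The windows are chr10:76253586-76253835 (plus strand), chr7:30914923-30915172 (minus strand, the most upstream of the annotated starts) and chr11:100574689-100574938 (plus strand).
S100b: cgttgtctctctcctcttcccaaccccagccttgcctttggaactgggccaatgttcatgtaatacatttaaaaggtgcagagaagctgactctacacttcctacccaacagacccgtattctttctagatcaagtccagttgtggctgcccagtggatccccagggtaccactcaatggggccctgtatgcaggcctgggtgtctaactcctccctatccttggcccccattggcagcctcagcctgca
Mag: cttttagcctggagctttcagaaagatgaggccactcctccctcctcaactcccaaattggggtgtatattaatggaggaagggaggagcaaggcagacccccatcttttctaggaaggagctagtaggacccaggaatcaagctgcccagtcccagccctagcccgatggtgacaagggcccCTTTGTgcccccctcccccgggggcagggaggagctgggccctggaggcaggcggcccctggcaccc
Cnp: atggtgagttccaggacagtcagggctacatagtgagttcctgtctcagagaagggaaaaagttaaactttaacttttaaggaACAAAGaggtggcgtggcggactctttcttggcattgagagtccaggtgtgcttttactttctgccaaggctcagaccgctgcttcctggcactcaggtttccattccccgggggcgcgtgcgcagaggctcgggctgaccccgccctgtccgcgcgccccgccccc
The 6 letters ACAAAG or ACAATG, searched on both strands, occurred in 3 of the 11 such windows of the 6 members that have one. The share was 25.2% of 32851 windows of all genes. Overlapping windows of Mag hold the same match, so the matches lie in Mag and Cnp only. ACAAAG alone was in 16.5% of all windows. A match of this length is therefore common, and the window of S100b holds neither motif.

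Levels below are log2 signals relative to the 75th percentile of the same array, and a change is the level at 20 months minus that at 6 months, with the standard error of the limma fit. Calls were made at an adjusted p under 0.05, by Benjamini-Hochberg over all genes tested. On the 12 arrays 47.5% to 55.8% of gene probes were well above background. Every slide of the 3 held 2 arrays of each age, but all arrays at 20 months lay in column 3 and none of those at 6 months did, so that column and age cannot be told apart. Heart muscle markers were high in 20 months replicate 1 and 6 months replicate 1, and T and NK cell markers in 6 months replicate 4. The defining smooth muscle gene of the vessel wall, Myh11, stood at 7.05 ± 0.39 at 6 months and 7.03 ± 0.12 at 20 months (SD, n = 6 each). Fat genes were also measured on every array: Ucp1 of brown fat stood at 7.92 ± 0.65 and 7.28 ± 0.55, and Adipoq, a hormone of fat cells, at 7.17 ± 0.27 and 7.02 ± 0.24.

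All 11 probes of the members stood well above background on all 12 arrays and none was saturated. No difference between the ages was called in them: 0 of 8 passed in the limma fit, where 0.313% of all genes tested were called (53 of 16918, of which 44 or 0.26% were higher and 9 or 0.0532% lower at 20 months). At an unadjusted p under 0.05 the count was also 0 of 8, against 7.98% of all genes. In 0 of 8 did the values of the ages separate without overlap, against 0.81% of all genes. The changes were positive in 4 members and negative in 4, with a median of -0.05, beside -0.02 over all genes tested. A p that misses the threshold does not show equality, and the 95% intervals below give the differences that the 12 arrays leave possible.

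Sox10, the transcription factor, gave a signal of -1.66 at the lowest, -1.26 at the median and -0.62 at the highest among the 6 mice aged 6 months. At 20 months the corresponding values were -1.37, -1.28 and -1.04. The older mice lay inside the range of the younger ones, whose spread (SD 0.38 against 0.13) came largely from a high mouse, 6 months replicate 3, and a low one, 6 months replicate 5. The change was 0.01 ± 0.15 (adjusted p = 0.994, limma), with a 95% interval of -0.32 to 0.34, which corresponds to between 0.80-fold and 1.26-fold. The probe lies at chr15:78985518-78985577 on the minus strand (mm9).

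S100b encodes a calcium-binding protein abundant in Schwann cells and other glia and known also from fat cells. It ranged from 2.49 over a median of 3.22 to 3.82 at 6 months and from 2.80 over 3.002 to 3.45 at 20 months. The highest and the lowest of all 12 values were again 6 months replicates 3 and 5. The change was -0.11 ± 0.21 (adjusted p = 0.913, limma; 95% interval -0.55 to 0.33), and without 6 months replicate 3 it was 0.03.

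Ngfr encodes the low-affinity neurotrophin receptor p75, carried by Remak and immature Schwann cells and also by sympathetic neurons. Its probe was printed in 10 spots on the array, which were averaged. Ngfr ranged from -2.23 over -1.98 to -1.50 at 6 months and from -2.33 over -2.13 to -1.60 at 20 months. The groups overlapped almost completely, and the highest mice were 6 months replicate 3 and 20 months replicate 1. The change was -0.15 ± 0.14 (adjusted p = 0.812, limma).

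Among the proteins of the myelin sheath, Mag, the adhesion molecule that faces the axon, ranged from -3.26 over -2.93 to -2.24 at 6 months and from -3.18 over -2.65 to -2.50 at 20 months. Its change was 0.11 ± 0.16 (adjusted p = 0.893, limma). Prx encodes periaxin, a scaffold of the outer Schwann cell membrane that is also known from some endothelial cells. Its values ran from 0.90 over 1.20 to 1.56 at 6 months and from 1.04 over 1.39 to 1.57 at 20 months, a change of 0.15 ± 0.13 (adjusted p = 0.783, limma). In both genes 1 young mouse lay at the level of the highest old mice or above it, and that mouse was 6 months replicate 3.

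Pmp22, a membrane protein of compact myelin that many other cells also express, ranged from 3.93 over 4.04 to 4.30 at 6 months and from 3.82 over 3.93 to 4.04 at 20 months. The young mice 6 months replicates 1 and 2 stood above the rest. The change was -0.15 ± 0.09 (adjusted p = 0.692, limma; 95% interval -0.33 to 0.04). The coding-end probe printed above changed by -0.19 ± 0.09 (adjusted p = 0.681 over 27579 probes, limma), and the probes correlated at r = 0.51 across the 12 mice.

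Cnp encodes an enzyme that glia place in the cytoplasmic channels of myelin and that other cells hold at lower levels. It ranged from 0.58 over 0.64 to 0.72 at 6 months and from 0.69 over 0.74 to 0.84 at 20 months. Only 2 of the 6 young mice, replicates 3 and 4, reached into the range of the old ones. The change was 0.10 ± 0.06 (adjusted p = 0.691, limma; 95% interval -0.02 to 0.23). Over all 12 mice its highest value was 1.20-fold its lowest, and its residual spread was smaller than that of all but 0.24% of the genes tested. The corresponding range was 2.51-fold for S100b, 2.37-fold for Mbp, 2.06-fold for Sox10 and 2.02-fold for Mag.

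**Figure D1:**
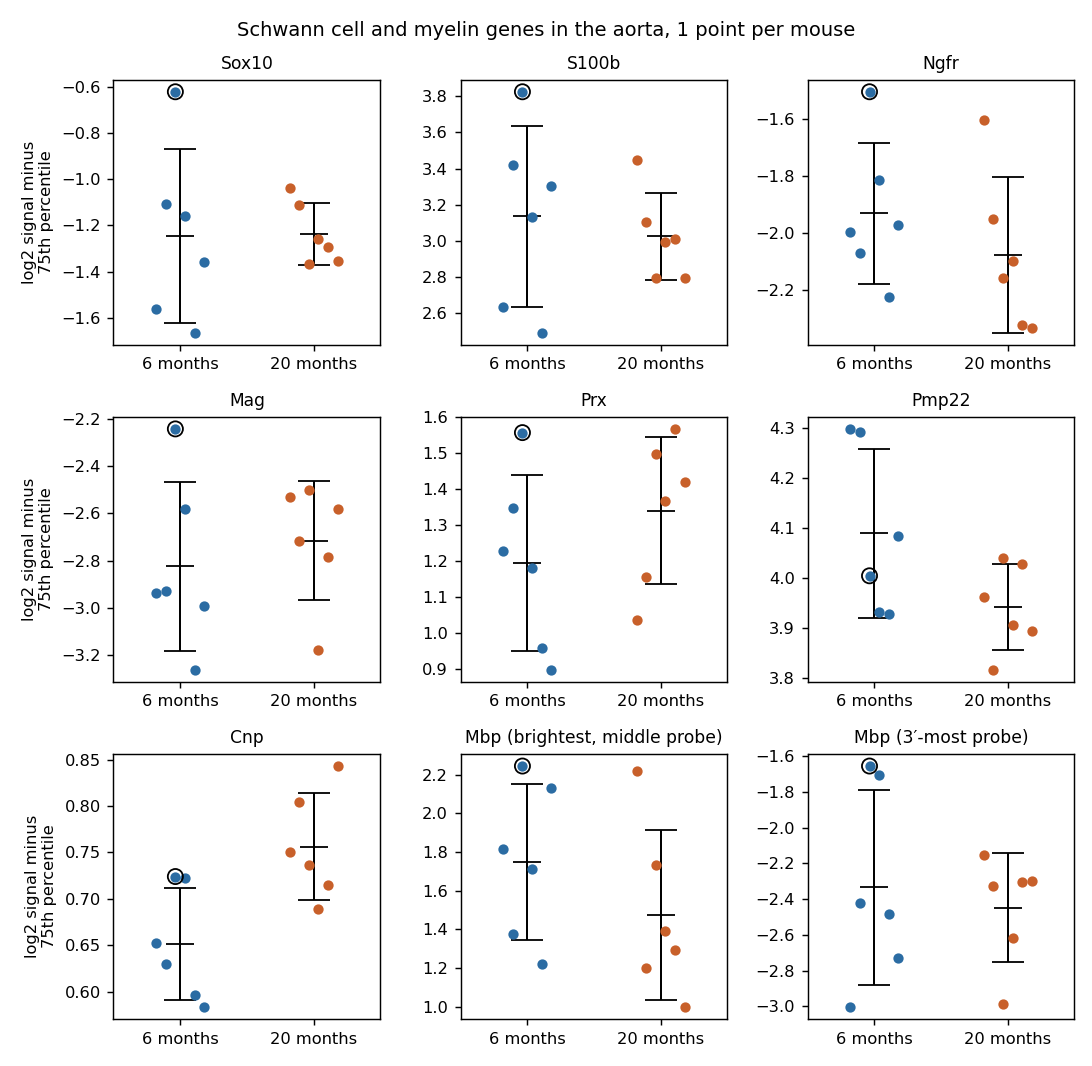
Log2 signal (minus the array's 75th percentile) of the 8 members, and of a further Mbp probe, in each of 6 mice per age, with mean ± SD as bars; vertical scales differ between panels. The circled point is 6 months replicate 3, which is the highest mouse for Sox10, S100b, Ngfr, Mag and Mbp.

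Mbp encodes myelin basic protein, which holds the membrane layers of myelin together on their inner faces; the gene also makes transcripts from an upstream start, known outside myelin. Its middle probe, the brightest of 3 and so the one that represented the gene, ranged from 1.22 over 1.76 to 2.24 at 6 months and from 0.999 over 1.34 to 2.22 at 20 months. The change was -0.28 ± 0.22 (adjusted p = 0.770, limma; 95% interval -0.75 to 0.20). The probe nearest the 5′ end, 50.8 kb upstream of the one nearest the 3′ end, changed by -0.40 ± 0.23, the middle probe lay 14.3 kb upstream of it, and the 3′-most probe, whose bases are spread over 2305 bases of the genome and so cross a junction, changed by -0.12 ± 0.23. None of the 3 was called.

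The spread between mice was larger at 6 months in 6 of 8 members (75%), and in 65.9% of all genes tested. The median ratio of the SD at 6 months to that at 20 months was 1.31 in the members and 1.20 in all genes, so the members stood near the background of the arrays.

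**Figure D2:**
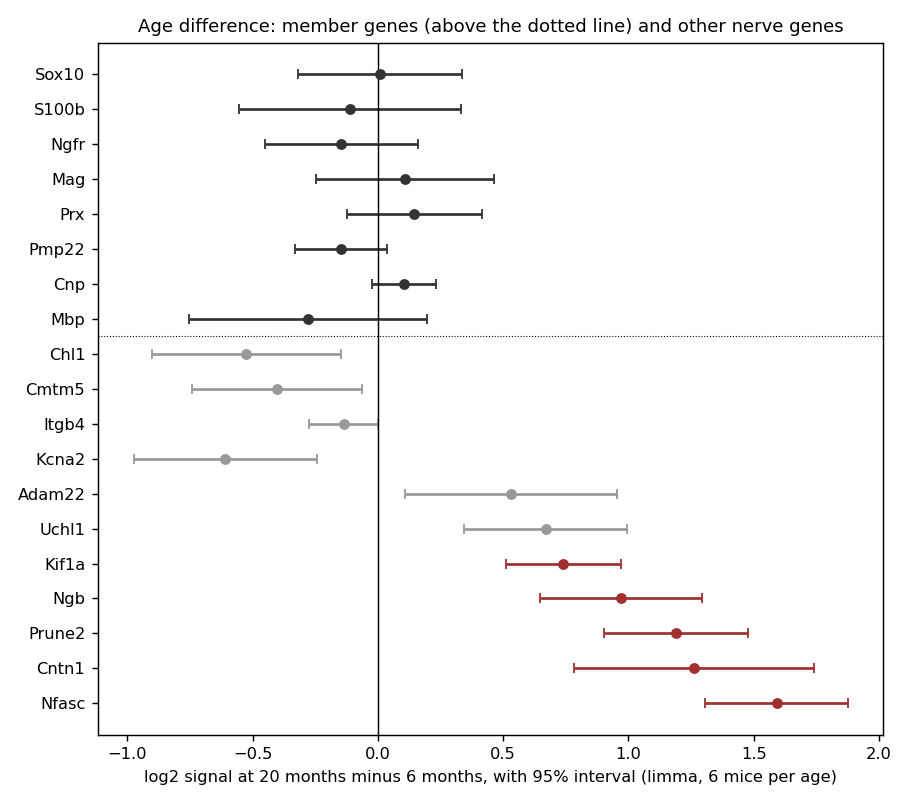
Change from 6 to 20 months (log2) with its 95% interval from limma, 6 mice per age, for the 8 members above the dotted line and for other nerve genes named in the text below it. Red marks an adjusted p under 0.05; the intervals of all 8 members include 0, whereas Nfasc at 1.59 and Cntn1 at 1.26 lie to the right.

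Whether the members rose and fell together from one vessel to the next was asked over the 28 pairs of members, with 100000-draw permutation tests adjusted over the pairs. By these tests 4 pairs passed by Pearson's r and 1 of them by Spearman's rho. Sox10 and S100b were the closest pair, with r = 0.92 (p = 3.0e-05, adjusted p = 8.4e-04) and rho = 0.88 (p = 2.2e-04, adjusted p = 0.00616) over 12 mice. Within the 6 young mice r was 0.94, within the 6 old mice 0.94, and with the slide means removed 0.85. Leaving out the 2 mice farthest from the median of Sox10, 6 months replicates 3 and 5, left r = 0.80. A single slide holds 4 arrays, too few for a value of its own.

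Ngfr went with the same genes less closely. With S100b it gave r = 0.75 (permutation p = 0.00528, adjusted p = 0.0420) and rho = 0.72 (adjusted p = 0.0984), and with Sox10 r = 0.74 (permutation p = 0.00600, adjusted p = 0.0420) and rho = 0.64 (adjusted p = 0.157). With 6 months replicates 3 and 5 left out these became 0.56 and 0.50, and with the slide means removed 0.55 and 0.52. Within the old mice Sox10 and Ngfr correlated at 0.90 and within the young at 0.87. Mbp by its middle probe and Ngfr gave r = 0.80 (permutation p = 0.00153, adjusted p = 0.0214) and rho = 0.69 (adjusted p = 0.108), 0.94 with the slide means removed and 0.59 without 6 months replicate 3 and 20 months replicate 1.

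Mag and Sox10 did not pass after adjustment (r = 0.70, permutation p = 0.0109, adjusted p = 0.0612; rho = 0.53, adjusted p = 0.280). Their relation rested on 2 mice: without 6 months replicates 3 and 5 it was 0.25, and it was 0.90 within the young mice and 0.05 within the old. Prx and Sox10 ran at r = 0.80 within the young mice and at -0.93 within the old, and 0.36 over all 12 (adjusted permutation p = 0.448); a difference between the ages in this relation was not tested. Pmp22 had r = -0.14 with Sox10 and passed with no other member after adjustment. Of the 28 pairs 21 were positive and 7 negative, with a median r of 0.36.

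**Figure D3:**
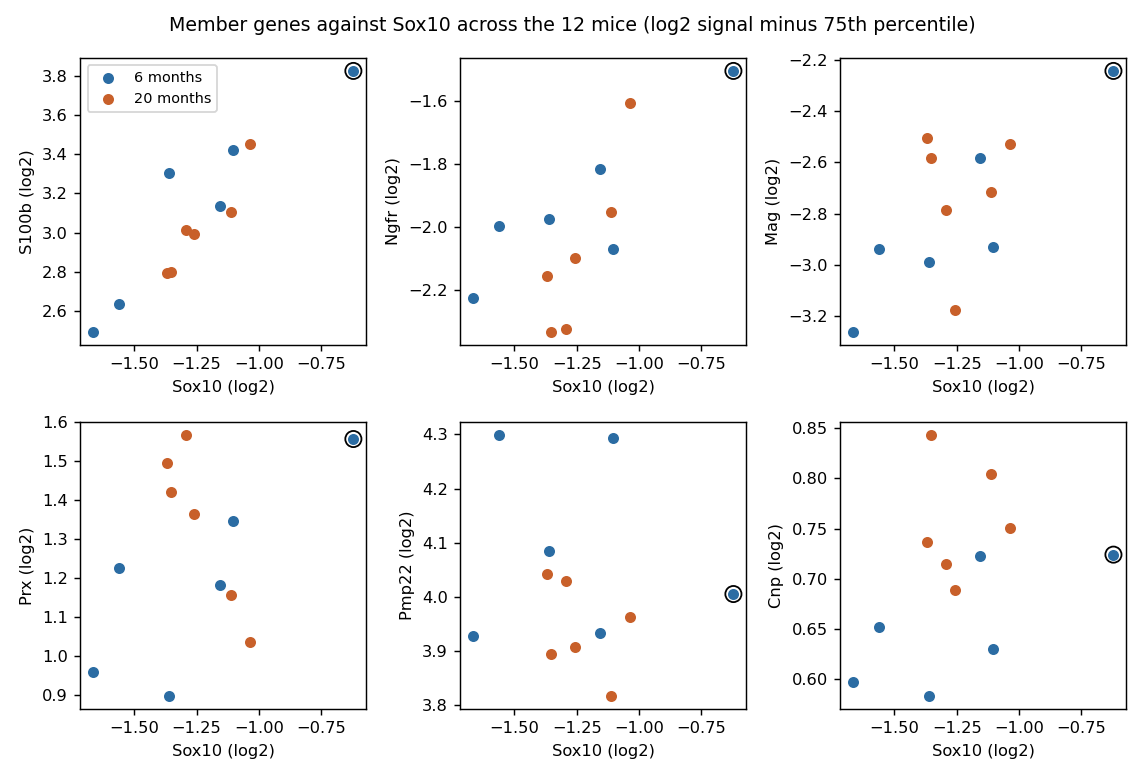
Level of 6 members against the level of Sox10 in the 12 mice (both axes log2 signal minus the 75th percentile), coloured by age, with 6 months replicate 3 circled. S100b follows Sox10 in both ages (r = 0.92), Mag less so (r = 0.70, and 0.25 without 6 months replicates 3 and 5), and Pmp22 has r = -0.14.

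With the mean of each age subtracted, the likeness to Sox10 was ranked over the 16917 other genes tested. S100b stood at rank 4 (r = 0.93). Ncmap, a small myelin-associated membrane protein of peripheral nerve, stood at rank 11 (0.88), Ngfr at rank 77 (0.78) and Mag at rank 214 (0.71). An r of 0.7 or more was reached by 3 of the 7 other members, by 2 of the 30 tested genes of the wider Schwann cell and myelin list (6.67%) and by 1.40% of all genes. The limit of 0.7 was set after these values were seen. For Ncmap r, here without the age means removed, went from 0.88 to 0.63 with 6 months replicates 3 and 5 left out. Cnp (0.48), Mbp by its middle probe (0.47), Prx (0.38) and Pmp22 (-0.16) were less like Sox10.

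**Figure D4:**
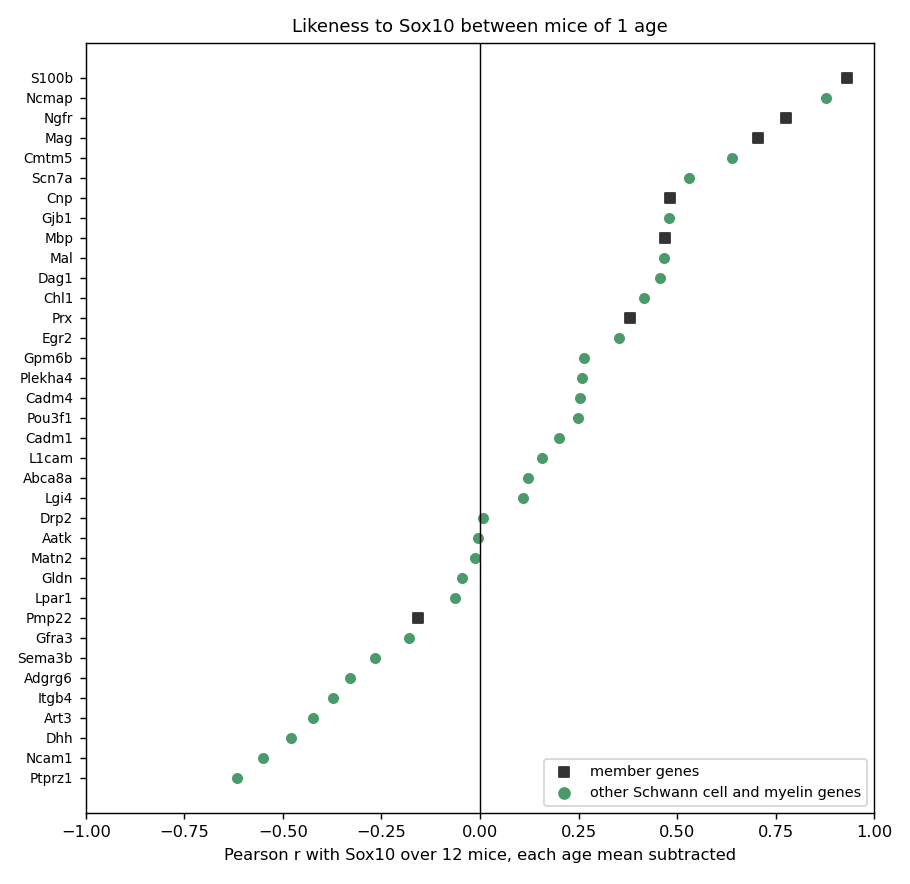
Pearson r with Sox10 over the 12 mice, each age mean subtracted, for 7 members (squares) and for other Schwann cell and myelin genes that were tested (circles). S100b (0.93) and Ncmap (0.88) lie at the top, and the median over the 30 tested genes of the wider list is 0.14.

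The single gene most like Sox10 by this measure was Map3k11 (0.94), followed by Chd1l (0.94) and Scrt2 (0.94). For S100b the leading genes were Cyp27a1 (0.95), Dnahc7a (0.93) and Cyp4f16 (0.92), for Ngfr Tbx5 (0.97), Rgma (0.96) and Gng2 (0.94), and for Mag Dpp4 (0.89), Tmem45b (0.88) and Scn7a (0.87). Scn7a is a sodium channel relative known from non-myelinating Schwann cells. Among the 3 leading genes outside the members, taken for each member, it alone belongs to a Schwann cell list. For Pmp22 they were Lsp1 (0.96), Arl16 (0.93) and Nelfb (0.93), for Prx Gemin5 (0.86), Lsm14b (0.86) and Tnxb (0.85), and for Cnp Gpha2 (0.82), Erich6 (0.82) and Myoz3 (0.81). The mean of the 8 standardised members was most like Vps13a (0.92), Atp1b1 (0.90) and Pou2f2 (0.89). All these values are a description over 12 mice, with no test.

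The middle and the 3′-most probe of Mbp correlated at r = 0.15 across the 12 mice, the 5′-most and the middle at 0.76, and the 5′-most and the 3′-most at 0.68. The 3′-most probe followed Sox10 (r = 0.72, rho = 0.73; 0.77 within the young mice, 0.61 within the old, 0.71 without 6 months replicates 3 and 5). The middle probe did so less (r = 0.44, and -0.02 without these mice). These values were looked up after the middle and the 3′-most probe had been seen to disagree and carry no test. The 3′-most probe had a mean level of -2.33 at 6 months and -2.45 at 20 months, and the 5′-most -1.87 and -2.27. The middle probe stood at 1.75 and 1.47, so the others were measured closer to background.

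Each of the 11 member probes was set against the mean level of 17 gene lists, 187 relations in all, and 1 passed after adjustment. The middle Mbp probe went with the markers of white fat, with r = 0.94 (permutation p = 3.0e-05, adjusted p = 0.00561) and rho = 0.89 (adjusted p = 0.0524). The relation was as close within the young mice (0.92), within the old (0.95), with the slide means removed (0.93) and without 6 months replicate 3 and 20 months replicate 1 (0.90). All 10 white fat markers of the list were measured, and their mean deviation from the 12-mouse mean ranged from -0.29 to 0.34 at 6 months and from -0.32 to 0.36 at 20 months. The mice highest for these markers, 20 months replicate 1 and 6 months replicates 6 and 3, were also the 3 highest for the middle Mbp probe, at 2.22, 2.13 and 2.24.

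The genes most like the middle Mbp probe were Slc2a4, the insulin-responsive glucose transporter of fat and muscle (0.99), Ctsd, a lysosomal protease (0.99), and Pex11a, a factor of peroxisome division (0.99). The 3′-most Mbp probe had r = -0.08 with the white fat markers, and the 5′-most had 0.61 (adjusted permutation p = 0.395). With the brown fat markers the 5′-most probe ran at 0.82 and the middle one at 0.80 (adjusted permutation p = 0.0826 each). Among other relations with that adjusted p, Mag had r = 0.76 with the wider Schwann cell and myelin list. Cnp had 0.80 with the axon and neuron genes described below, and 0.55 with the age means removed. Within the young mice that relation was 0.76 and within the old 0.17. Ngfr had r = 0.73 with the brown fat, 0.65 with the white fat and -0.69 with the smooth muscle markers (adjusted permutation p = 0.163, 0.297 and 0.202). With the slide means removed these were 0.83, 0.85 and -0.63, beside 0.52 for Ngfr with Sox10. With the age means removed they were 0.70, 0.63 and -0.68, beside 0.78 for Ngfr with Sox10. Without 6 months replicate 3 and 20 months replicate 1 they were 0.51, 0.36 and -0.40. The median r of Sox10, with the age means removed, was -0.56 over 8 smooth muscle markers. It was 0.39 over 10 brown fat and -0.05 over 10 white fat markers, beside -0.05 over all other genes. Whether fat left on the vessel has a part in the signal of Mbp, Ngfr or any other member was not tested. With Mbp read by the 3′-most probe in place of the middle one, 0 of 8 members were called and the median change was -0.05.

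**Figure D5:**
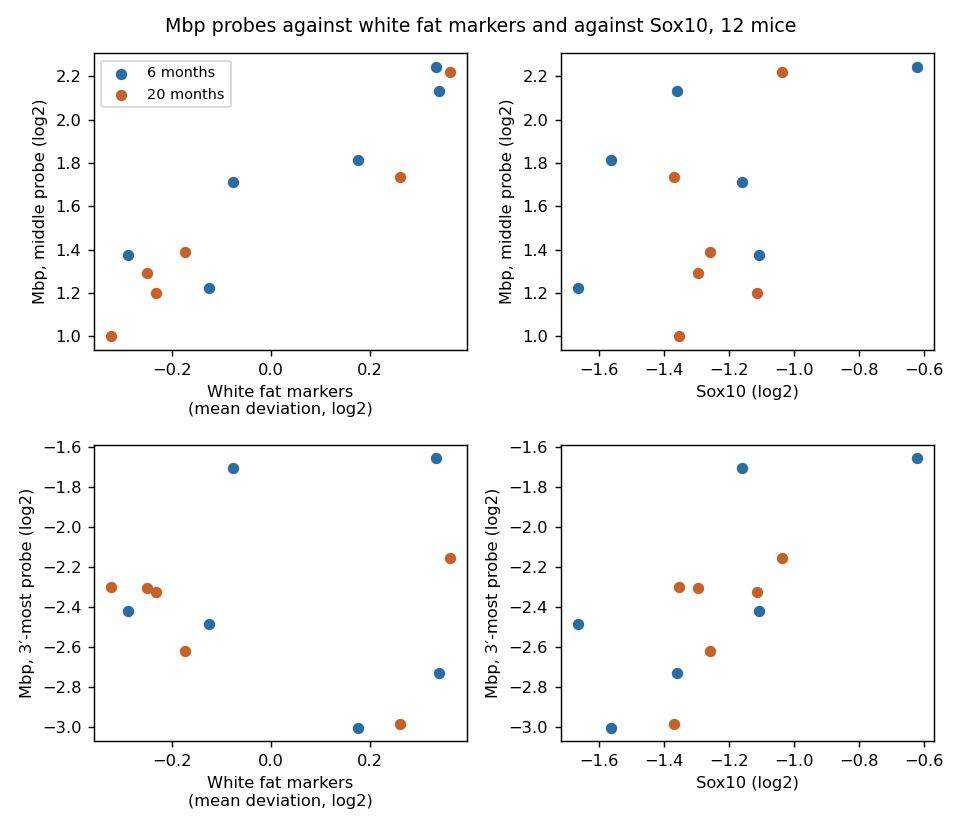
Level of the middle Mbp probe (top) and of the 3′-most Mbp probe (bottom) against the mean deviation of 10 white fat markers (left) and against Sox10 (right) in 12 mice, all in log2. The middle probe rises with the fat markers (r = 0.94) and the 3′-most probe does not (r = -0.08), while the 3′-most probe rises with Sox10 (r = 0.72).

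The mouse with the highest Sox10, S100b, Ngfr and Mag, 6 months replicate 3, was also high in the markers of some other tissues. Its brown fat markers lay 0.61 above the 12-mouse mean, its white fat markers 0.33 and its mesothelial markers 2.36, and its smooth muscle markers at -0.34 relative to that mean. Its heart muscle markers, at -1.46, and its perineurial and endoneurial markers, at -0.26, were the lowest of the 12 mice. Axon and neuron genes lay at -0.14 in it. In 6 months replicate 6 the brown and white fat markers were higher, at 0.70 and 0.34, with Sox10 at -1.36. All 10 brown fat and all 8 smooth muscle markers were measured, and 5 of the 6 mesothelial ones. Of the heart muscle markers 12 of 13 were measured, and of the perineurial and endoneurial ones 6 of 7. Brown fat markers ranged from -0.33 to 0.70 at 6 months and from -0.41 to 0.47 at 20 months, mesothelial markers from -0.28 to 2.36 and from -2.02 to 0.75, and smooth muscle markers from -0.39 to 0.19 and from -0.19 to 0.19. The part of these tissues in the member signals was not tested.

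Of 46 further genes of Schwann cells and myelin, 30 could be tested, and 0 of 30 were called by limma, against 0.313% of all genes. An unadjusted p under 0.05 was found in 3 of the 30, against 7.98% of all genes. Of the 30 tested genes 11 had a positive and 19 a negative change, and their median was -0.05. The smallest p belonged to Chl1, a cell adhesion molecule (-0.52 ± 0.17, adjusted p = 0.397, limma). Cmtm5 had -0.40 ± 0.16 (adjusted p = 0.520, limma) and Itgb4, the integrin by which Schwann cells hold to laminin, had -0.14 ± 0.06 (adjusted p = 0.636, limma). Egr2, the regulator of myelination, had 0.48 ± 0.26 (adjusted p = 0.680, limma).

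Of that list 16 genes were not tested. Of these, 8 stood well above background on 0 of 12 arrays, 7 on 1 to 5 arrays, and 1 had no probe kept. Among the 8 were Erbb3, the neuregulin receptor of Schwann cells, Foxd3, Sox2 and Gfap.

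Of 19 genes at the contact of axon and Schwann cell 11 were tested, of which 4 had a positive and 7 a negative change, with a median of -0.03 beside -0.02 over all genes. Of the 11, 2 were called, both higher at 20 months (0.26% of all genes were called higher). These are Nfasc, the neurofascin of nodes and paranodes, and Cntn1, the contactin that joins the axonal side of the paranode. Nfasc lay between -0.36 and 0.11 at 6 months and between 0.90 and 1.68 at 20 months, without overlap. Its change was 1.59 ± 0.13, or 3.01-fold (adjusted p = 1.6e-04, limma), and it was 1.32, 1.80 and 1.65 on slides 1, 2 and 3.

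Cntn1 lay between -2.56 and -1.34 at 6 months and between -0.87 and -0.14 at 20 months, a change of 1.26 ± 0.22, or 2.40-fold (adjusted p = 0.0345, limma). Under normexp background correction the change was 0.69. The call was lost without filtering dim probes (adjusted p = 0.0934, limma), when the 3 arrays high in heart or T cell markers were dropped (0.0708), and when 6 months replicate 2 or 3 or any single mouse aged 20 months was left out, where it reached at most 0.0956 (limma). Kcna2, an axonal potassium channel, had -0.61 ± 0.17 (adjusted p = 0.245) and Adam22, its partner in the juxtaparanode, 0.53 ± 0.20 (adjusted p = 0.488, limma).

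The level of Nfasc relative to that of Sox10 rose by 1.58 (log2), from 1.06 ± 0.47 to 2.64 ± 0.41 (SD, n = 6 each), with an exact two-sided permutation p of 0.00216, the smallest that 924 splits can give (adjusted over 2 comparisons 0.00433). For Cntn1 relative to Sox10 the rise was 1.25, from -0.61 ± 0.75 to 0.65 ± 0.31 (exact permutation p = 0.00433, adjusted 0.00433). Nfasc and Cntn1 were picked with their changes known, so these tests are not independent evidence of them.

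Of 20 axon and neuron genes 12 were tested, of which 8 had a positive and 4 a negative change, with a median of 0.28. Of the 12, 3 were called, all higher at 20 months, but the list holds genes known from earlier results of these data. They were Prune2 (1.19 ± 0.13, adjusted p = 0.00272), the axonal motor Kif1a (0.74 ± 0.11, adjusted p = 0.0119) and Ngb, neuroglobin (0.97 ± 0.15, adjusted p = 0.0169, limma). Ngb was well above background in 1 of 6 young and 6 of 6 old mice, so it entered the test only through the group where it is high, and its change and call support nothing. Its change was 0.24 under normexp correction. Uchl1, a ubiquitin hydrolase abundant in neurons, had 0.67 ± 0.15 (adjusted p = 0.121, limma). Among the fits to all 3 slides without the replicate block, the call of Kif1a was lost under median scaling (adjusted p = 0.0909, limma), and that of Prune2 was kept, although its change was 0.46 under normexp correction. The neurofilament genes Nefl and Nefm stood well above background on 0 of 12 arrays.

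Other cell types share genes with Schwann cells. Oligodendrocytes make Mbp, Mag and Cnp in the brain, and 4 of 9 of their markers were tested, with 0 called. The mean level of these markers had r = 0.60 with Mag and 0.68 with Cnp (adjusted permutation p = 0.358 and 0.167). The rho was 0.83 and 0.78 (adjusted permutation p = 0.144 each). With the middle Mbp probe r was -0.15 (adjusted permutation p = 0.906). Melanocytes carry Sox10, and 5 of 10 of their markers were tested, of which 1 was called: Mlana rose from -2.04 ± 0.27 to -1.17 ± 0.24 (SD, n = 6 each), a change of 0.87 ± 0.14 (adjusted p = 0.0225, limma). Mlana was singled out after its values had been seen. Its adjusted p was 0.0576 under normexp correction (limma), where its change was 0.44, and 0.0625 with no filter on dim probes. It was 0.153 without the 3 arrays high in heart or T cell markers and up to 0.0642 with single mice left out (limma). With the age means removed, an r of 0.7 with Sox10 was reached by 0 of 5 melanocyte and 0 of 4 oligodendrocyte markers. It was also reached by 0 of 12 axon and neuron genes and 0 of 11 axon-glia contact genes. Over all genes the share was 1.40%, so lists this short could not show a lower share.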

How the data were processed

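RNA of the descending aorta of 12 mice, 6 per age, was measured on 12 Agilent 1-colour arrays. Per the file headers, the authors read them with Feature Extraction 10.7.1.1 (build mm9), which gives each spot a background-subtracted and detrended intensity, not scaled between arrays. A deposited table of log2 values of the same arrays, whose steps are not given in the sources used here, served as an alternative.

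Outlier-flagged spots were dropped, which lost 51 of 55681 gene probes. Levels are the mean log2 intensity over a probe's spots minus the 75th percentile of its array. Genes were named through RefSeq accessions of GRCm38.p6 where possible. Probes well above background on at least 6 arrays were kept, and the probe with the highest mean stood for a gene. The test between ages was limma's lmFit and eBayes with age as the single term (limma 3.58.1 in R 4.3.3). The procedure was tested on simulated data. The number of arrays limits the precision.

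The named genes are the 8 members, genes named in any case (among them Nfasc, Cntn1, Ucp1, Adipoq and Myh11), every called gene and the 4 with the smallest p from the Schwann cell, axon-glia contact and axon lists, and, as most like a member, the 3 genes with the highest r to it with age means removed (10 for the members' mean, of which the leading 3 are given). Of the genes this rule names, 2 are not reported here. The members and lists were chosen with earlier results of these data known. Alternatives covered background correction, scaling, filters, slide and replicate blocks, array weights, probe summary and each array left out. Mbp by its 3′-most probe was added after seeing the data.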

Additional observations from a re-analysis of the deposited data

How the results depend on the processing

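Under each of 29 alternatives 0 of 8 members were called, the median member change stayed between -0.16 and 0.07, and the lowest adjusted p of a member was 0.380 (Pmp22, array weights, limma). Mbp and Pmp22 were lower and Cnp higher at 20 months in all 29. The sign of the other members turned in some: Sox10 with normexp correction (-0.0083), on slide 1 alone (-0.21), without the 3 arrays high in markers of other tissues (-0.089) and with single mice left out (-0.076 to 0.13); S100b on slide 2 alone (0.082) and with single mice left out (-0.24 to 0.027); on slide 1 alone Ngfr (0.0092), Prx (-0.36) and Mag (-0.037); and Mag with array weights (-0.012). The cause of these turns was not tested.

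The count of all genes called, 53, was 6 with the replicate block (0 members; Nfasc and Prune2 kept an adjusted p under 0.05 whereas Cntn1 had 0.147, Kif1a 0.150, Ngb 0.0821 and Mlana 0.200, limma), 122 with array weights, 23 with no filter on dim probes, 33 with median scaling, 30 without the 3 arrays, and 21 (without 20 months replicate 2) to 58 (without 6 months replicate 6) with single mice left out. Same-numbered mice of the 2 ages deviated with correlations of -0.36 to 0.32, and 2 of 12 mice correlated best with their own number, so the numbers were not taken as pairs. A slide alone called at most 1 gene. Members near the low end of the signal, such as Mag, Ngfr and Sox10, are measured closer to background, as are the 5′-most and 3′-most probes of Mbp. No group of 6 mice held an outlying value by Dixon's criterion among 22 groups tested.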
